A study of Mus musculus with 4 samples.

Results

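Dividing monocytes were taken as the barcodes that carried both monocyte and mitotic transcripts, and 645 of the 31279 barcodes kept from bone tissue met the rule. A barcode, which stands for 1 cell, was a member when it held 1000 to 40000 UMIs (unique molecular identifiers, each counting 1 captured transcript) and at least 200 genes, at most 10% mitochondrial and 0.2% haemoglobin UMIs, at least 4 UMIs summed over Csf1r, Ms4a6c, Ccr2 and Vcan, at least 3 UMIs summed over Top2a, Mki67 and Cdk1, under 2% of UMIs from Camp, Ngp and Ltf, and fewer than 2 Cd79a UMIs. The study asked how bone cells respond to the loss of mechanical load, using 10x 3′ single-cell RNA sequencing of tibiae and femurs that had been flushed of marrow and then digested with enzymes. The mice were wild-type C57BL/6J. In the hindlimb unloading (HLU) group, 2 mice were suspended by the tail for 28 d, and in the control (Ctrl) group 2 mice were housed without suspension. The methods give an age of 8 weeks, whereas the series text places the samples at postnatal day 28, and the 2 statements could not be reconciled here. Each mouse gave 1 library, so the replicate is the mouse (n = 2 per group), and with 2 against 2 an exact permutation test over libraries cannot go below p = 0.33. Tail suspension also changes posture and fluid distribution, and flushing leaves an unmeasured share of marrow cells behind.

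Monocytes arise in marrow from granulocyte-monocyte progenitors that express azurophil granule proteases, divide a few times, and leave the cycle as they take on a mature phenotype. In bone the same lineage supplies macrophages and the precursors of osteoclasts. During G2 and mitosis a cell expresses the kinesins, cyclins B, spindle checkpoint proteins and the ubiquitin enzymes of the anaphase-promoting complex (APC/C), whereas replication enzymes such as the MCM helicase belong to late G1 and S phase.

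The Ctrl libraries held 15 members (replicate 1) and 41 (replicate 2), and the HLU libraries held 65 (replicate 1) and 524 (replicate 2). Wherever 4 values follow each other below, they are in this order. HLU replicate 2 thus carried most of the members, and it stood apart in other ways: its total was 99849070 UMIs, against 57925383, 61296053 and 47819046 in the other 3 libraries. The members were deep cells in all 4 libraries, with median UMIs of 17422, 21407, 20276 and 24292.5, while monocytes without any dividing UMI had medians of 10364 to 10722.5. Summed over members, the libraries gave 271606, 855963, 1338933 and 12272700 UMIs, so that values of Ctrl replicate 1 rest on the fewest counts. In Ctrl replicate 1, 7 of the 15 members (46.7%) were called doublets by Scrublet, against 12.2%, 10.8% and 13.7% of the members in the other libraries. No member barcode was shared between libraries.

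The monocyte and mitotic terms of the rule were checked against genes that it did not use. Birc5, which encodes survivin, a subunit of the chromosomal passenger complex, was found in 93.3%, 75.6%, 86.2% and 67.0% of members in the 4 libraries. Monocytes without dividing UMIs held a Birc5 UMI in 1.58 to 4.34% of cells and B cells, which should mostly lack it outside division, in 0.763 to 2.15%, at median depths of 2435 to 3890.5 UMIs against 17422 to 24292.5 in members. The B cells were barcodes with at least 4 UMIs of Cd79a, Cd79b and Ms4a1, fewer than 4 monocyte UMIs and 0 dividing UMIs. Both classes were thus chosen without dividing UMIs, which partly fixes their low Birc5 shares. Irf8, a transcription factor of monocyte fate, was present at 155, 176, 229 and 122 CPM in members (a gene's UMIs summed over a class and scaled to the same total in each class and library), against 10.3, 2.73, 2.79 and 0.538 in dividing immature neutrophils, the barcodes with 3 or more dividing UMIs, at least 2% Camp, Ngp and Ltf UMIs and fewer than 4 monocyte UMIs. Each term of the label was thus checked with 1 gene outside the rule, and Irf8 only against a class chosen for few monocyte UMIs. The members were not uniform: 25.4% of them held 50 or more UMIs of Mpo, Elane, Prtn3 and Ctsg, with a median Vcan of 0. The study describes a monocyte subset with Birc5, Ube2c and Cdkn3 as cartilage progenitors. The 20 cartilage genes listed here summed to 751, 3952, 216 and 144 CPM in members, their most abundant gene was Prg4 (lubricin, of the joint surface) and Matn1 was at 0. They summed to 3345, 2802, 11.4 and 83.4 CPM in dividing neutrophils and to 22380, 19726, 34.5 and 461 in monocytes without dividing UMIs. In each class both Ctrl libraries lay above both HLU libraries. At 2% or more cartilage and mesenchymal UMIs, 2 members in Ctrl replicate 2 and 1 in HLU replicate 2 qualified as carrying skeletal transcripts.

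The rule fixes a sharp edge in a continuous range of counts. At exactly 3 dividing UMIs lay 107 members, and 149 monocytes with 2 such UMIs and 338 with 1 lay just outside. At exactly 4 monocyte UMIs lay 41 members, and 57 dividing barcodes with 3 were left out.

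Against non-dividing monocytes, which met the same rule with 0 UMIs of Top2a, Mki67 and Cdk1 (1664 barcodes), the members were set apart by genes of mitosis. Since both classes were defined on the same cells, these ratios are a description without a test. Among 2255 genes outside the rule at 50 CPM or more in all 4 libraries of at least 1 of the classes, 102 were more than 2-fold higher and 24 more than 2-fold lower in members in all 4 libraries. A gene could pass through 1 class alone, where it was high. Counts and median ratios at 50 CPM, here and below, are therefore partly set by this filter. The highest ratios outside the rule belonged to Cenpf, Ccna2, Nusap1, Ube2c, Kif11, Birc5, Ccnb1, Hmmr, Pclaf, Plk1, Cdc20, Prc1, Tpx2, Ccnb2 and Cenpe, 11 of which were in the G2/M or spindle lists. Cenpf, a kinetochore protein, was at 177, 190, 150 and 133 CPM in members and at 0.892, 0.534, 1.23 and 1.16 in non-dividing monocytes, a mean log2 ratio of 7.29 ± 0.66 (SD, n = 4 libraries). Ube2c, the ubiquitin-conjugating enzyme of the APC/C, was at 1506, 685, 971 and 345 against 7.73, 4.27, 10.8 and 4.07 (6.93 ± 0.59). Birc5 was at 549, 305, 367 and 207 against 2.68, 1.33, 3.70 and 6.51 (6.72 ± 1.26). For these 3 genes the lowest library of the members lay far above the highest of the non-dividing class, and HLU replicate 2 had the lowest level in members each time.

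**Figure D1:**
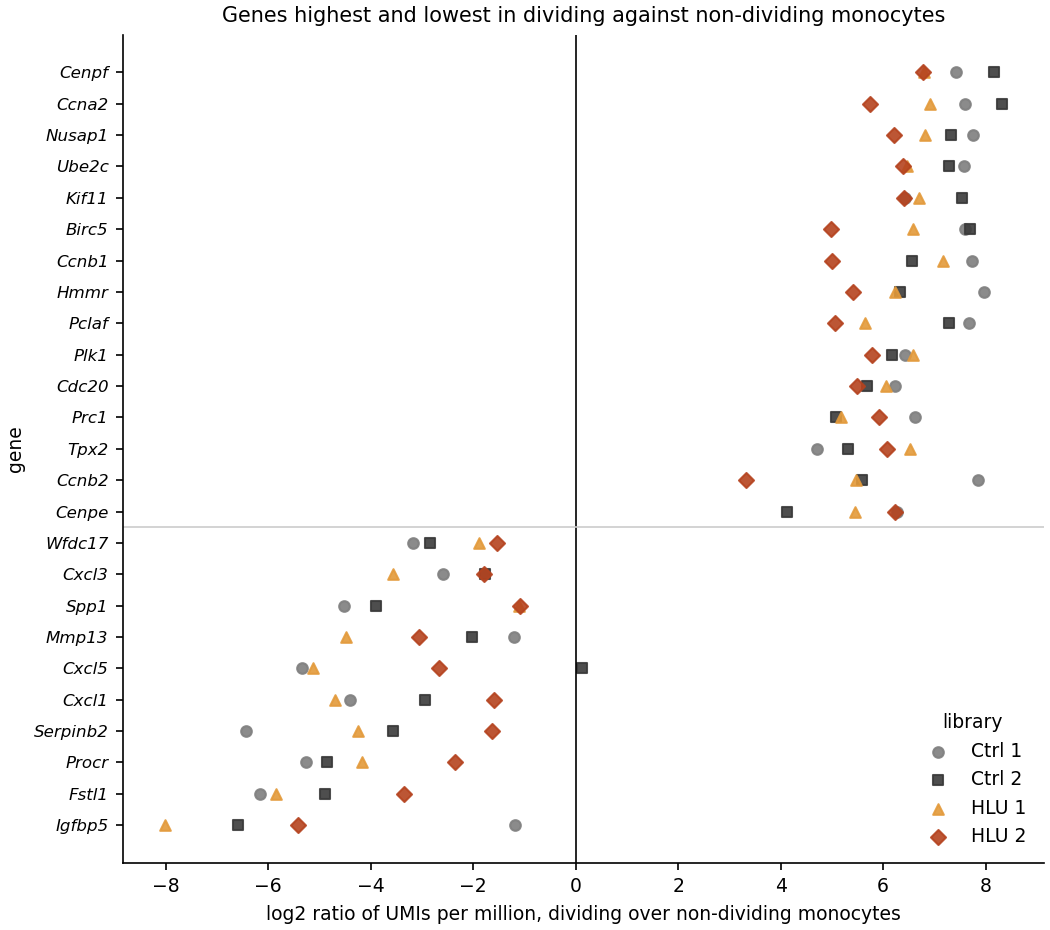
Log2 ratio of CPM in dividing over non-dividing monocytes (x axis, 0.5 UMIs added to each sum) for the 15 genes outside the rule with the highest and the 10 with the lowest mean ratio (y axis), with 1 point per library. The mitotic genes lie above 3 in all 4 libraries, whereas the genes at the bottom spread widely between libraries and Cxcl5 crosses 0 in Ctrl replicate 2.

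The G2/M genes as a group were far higher in members, and the S phase genes that could be counted were higher by less. Of the 51 G2/M genes outside the rule, 29 reached 50 CPM and all 29 were higher in members in every library, with a median ratio of 21.6-fold. A gene could reach 50 CPM through the members alone, which raises this count and median. The whole list of 54 genes, with Top2a, Mki67 and Cdk1, summed to 13567, 9245, 10880 and 7416 CPM in members. In non-dividing monocytes it summed to 1058, 1122, 1259 and 1232 CPM. Of the 17 genes of the spindle checkpoint and APC/C list 9 reached that level, all higher, at a median of 38.0-fold. The same limit applies here. All 17 genes summed to 4816, 2849, 3414 and 2016 CPM in members, against 355, 350, 316 and 341 in non-dividing monocytes. In the list of G1/S and S genes 4 of 43 reached that level, all higher, at a median of 2.31-fold. Low abundance kept most replication genes out of this count: Mcm5, a subunit of the MCM helicase, was at 40.5, 58.4, 57.5 and 74.5 CPM against 3.86, 4.54, 3.2 and 10.1, and Rrm2, the regulated subunit of ribonucleotide reductase, at 70.0, 64.3, 38.1 and 41.7 against 1.19, 3.74, 0.739 and 1.63. The 2.31-fold median of the S list therefore rests on 4 genes and leaves out these 2.

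The promoters of the mitotic genes were searched for elements known from late cell cycle genes, the TTTGAA core of the cell cycle genes homology region and the CCAAT box, each on both strands (TTCAAA and ATTGG) within 250 bases before the start. Promoters were those of RefSeq on GRCm38.p6 and 34 of the 37 G2/M and spindle genes that were higher in members matched by symbol. Both motifs occurred in 44.1% of those genes, TTTGAA in 50% and CCAAT in 82.4%, against 6.45%, 18.3% and 37.5% of all 27025 genes with a promoter. Over the full G2/M and spindle lists, not chosen by level, 55 genes matched and the shares were 34.5%, 40% and 74.5%. The 40 matched genes of S phase and licensing held CCAAT in 70% and TTTGAA in 20%. These shares are a description, a match is not evidence of a binding site, and the motifs were counted separately. The 120 bases before the start are shown for 4 genes to let the motifs, in capitals, be seen in place: Cdkn3 (a phosphatase of CDK subunits, chr14:46760421-46760540, plus strand), Kif11 (the spindle kinesin Eg5, chr19:37376262-37376381, plus strand), Ccnb2 (cyclin B2, chr9:70421555-70421674, minus strand) and Birc5 (chr11:117849117-117849236, plus strand).
Cdkn3: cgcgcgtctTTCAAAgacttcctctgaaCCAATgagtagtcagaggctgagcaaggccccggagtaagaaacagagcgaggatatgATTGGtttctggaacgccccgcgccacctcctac
Kif11: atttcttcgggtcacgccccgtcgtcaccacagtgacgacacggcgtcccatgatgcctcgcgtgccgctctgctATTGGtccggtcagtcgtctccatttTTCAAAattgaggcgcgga
Ccnb2: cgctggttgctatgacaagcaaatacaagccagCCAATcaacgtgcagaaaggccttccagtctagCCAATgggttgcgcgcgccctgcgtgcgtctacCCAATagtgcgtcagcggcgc
Birc5: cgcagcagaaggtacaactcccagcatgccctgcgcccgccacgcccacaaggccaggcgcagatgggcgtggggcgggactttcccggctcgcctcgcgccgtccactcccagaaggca
Cdkn3 and Kif11 showed both motifs close together, Ccnb2 showed 3 CCAAT boxes with a TTTGAA lying further out, 167 bases before the start, and the Birc5 window had neither set of letters. Ube2c, whose sequence is not shown, held TTCAAA 29 bases and ATTGG 57 and 88 bases before its RefSeq start.

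Members also carried more of the transcripts of monocyte progenitors than non-dividing monocytes did, and a level nearer to that of dividing neutrophils. All 5 progenitor genes that reached 50 CPM were higher in members in every library, at a median of 11.6-fold, although a gene could pass that filter through the members alone. Elane (neutrophil elastase, an azurophil granule protease) was at 968, 1051, 1113 and 1139 CPM in members against 185, 70.5, 105 and 123 in non-dividing monocytes once barcodes with 2% or more skeletal UMIs were left out. Prtn3 (proteinase 3) was at 1267, 964, 1059 and 886 against 244, 121, 170 and 101, Ctsg (cathepsin G) at 593, 800, 484 and 1317 against 49.9, 71.2, 58.1 and 138, and Mpo (myeloperoxidase) at 269, 243, 465 and 368 against 53.1, 18.7, 25.1 and 38.9. In these 4 genes the members of every library exceeded the non-dividing monocytes of every library, and the 4 member sums of Elane differed little from one another. The 12 progenitor genes summed to 3564, 3456, 3458 and 4125 CPM in members and to 648, 341, 537 and 485 in non-dividing monocytes. In dividing immature neutrophils they summed to 2232, 2856, 1888 and 3164. Against that class 4 of 6 genes at 50 CPM were higher in members and 2 lower in every library, at a median of 1.34-fold.

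Inflammatory and secreted products lay on the other side. Of 9 inflammatory genes at 50 CPM, 8 were lower in members in every library, with a median ratio of 0.305, and none was higher. The chemokine gene Cxcl3 was at 239, 785, 259 and 262 CPM in members and at 1451, 2681, 3078 and 905 in non-dividing monocytes, or 5.38-fold lower. Serpinb2, which encodes a plasminogen activator inhibitor of activated macrophages, was at 0, 22.2, 4.48 and 344 against 159, 268, 91.9 and 1062. HLU replicate 2 had the most Serpinb2 in both classes. Igfbp5, Fstl1, Procr, Mmp13 and Spp1 were also among the 10 lowest ratios. Skeletal barcodes made up 103, 73, 0 and 7 of the non-dividing monocytes in the 4 libraries, and without them Spp1 was 3.04-fold lower in place of 6.31-fold and the inflammatory count was again 8 of 9. Among 14 glycolytic genes 0 were higher and 2 lower in every library, at a median ratio of 0.940.

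Compared with dividing immature neutrophils (1902 barcodes), which differ from members by the monocyte and granule terms of the rule, the mitotic genes were close in level and the monocyte genes were not. The 33 G2/M genes at 50 CPM had a median ratio of 0.836, with 4 higher and 8 lower in every library. Ms4a6b was at 144, 118, 133 and 130 CPM in members against 0, 0.745, 1.30 and 0.717, and S100a4, a calcium-binding protein of motile myeloid cells, at 346, 1014, 851 and 720 against 12.5, 8.69, 3.73 and 4.36. Lrg1 was at 0, 4.67, 9.71 and 10.2 against 195, 255, 280 and 329, and Pglyrp1, a granule peptidoglycan-recognition protein of neutrophils, at 0, 26.9, 47.8 and 59.3 against 1004, 1059, 1165 and 1622. Part of this contrast follows from the rule, which limits neutrophil granule transcripts in members, and from the limit on monocyte UMIs in the neutrophil class.

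The members differed among themselves along the same axis of granule transcripts. At least 5 UMIs summed over Mpo, Elane, Prtn3 and Ctsg were found in 46.7%, 56.1%, 60.0% and 45.6% of members in the 4 libraries, in 4.43 to 11.3% of non-dividing monocytes and in 0 to 0.660% of B cells. Dividing immature neutrophils, which were shallower cells with medians of 12216 to 15936 UMIs, met the same level in 36.2%, 36.4%, 25.4% and 41.7% of cells, so these transcripts were not particular to members. Cells with 50 or more such UMIs made up 20%, 24.4%, 24.6% and 25.8% of members. Across these bins, the median UMIs of Vcan (versican, a matrix proteoglycan that is high in classical monocytes and is 1 gene of the rule) went from 3, 3, 4.5 and 12 in members with 0 to 4 granule UMIs to 0 in those with 50 or more in all 4 libraries. Csf1r was also lower in the top than in the bottom bin of every library, by less, and Ms4a6c and Ccr2 were not: Ms4a6c went from 2.5, 4.5, 9 and 17 to 7, 4, 4 and 4, Ccr2 from 1.5, 3, 4 and 0 to 4, 3, 1.5 and 0, and Csf1r from 2.5, 6.5, 7 and 5 to 2, 5, 3 and 4. Ly6c2, a surface antigen of classical monocytes, went the other way, from medians of 1.5, 1, 15.5 and 14 to 20, 19.5, 31 and 165. The sum of Ptgs2, Il1a, Serpinb2 and Cxcl3 had a median of 0 to 0.5 UMIs in the cells richest in granule transcripts and of 1.5, 4, 2.5 and 9 in the poorest. The bins are ranges of a sum and not cell types, cells richer in granule UMIs were also deeper in each library (medians of 21930, 25996, 20566 and 31639 UMIs against 16632.5, 17356, 18825 and 17629), and Ctrl replicate 1 filled its top bin with 3 cells.

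**Figure D2:**
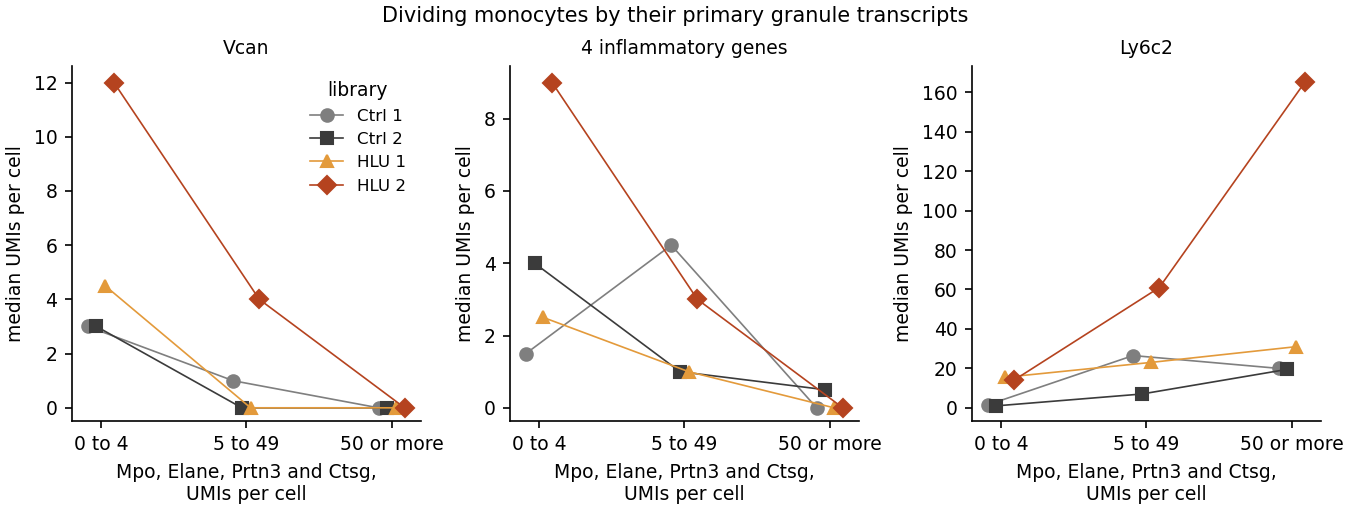
Median UMIs per cell (y axes) of Vcan, of 4 inflammatory genes summed (Ptgs2, Il1a, Serpinb2, Cxcl3) and of Ly6c2 in dividing monocytes grouped by their summed Mpo, Elane, Prtn3 and Ctsg UMIs (x axes), 1 line per library. Vcan reaches 0 in the top group of all 4 libraries, and Ly6c2 is higher in the top than in the bottom group of each.

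Dividing monocytes formed a larger part of the monocyte barcodes in both HLU libraries than in both Ctrl libraries, but the gap rested mainly on HLU replicate 2. The shares were 4.48% (15 of 335, exact 95% Clopper-Pearson interval 2.53 to 7.28%) in Ctrl replicate 1, 9.74% (41 of 421, 7.08 to 13%) in Ctrl replicate 2, 13% (65 of 499, 10.2 to 16.3%) in HLU replicate 1 and 34.0% (524 of 1541, 31.6 to 36.4%) in HLU replicate 2. These intervals cover counting error only. The group means were 7.11% ± 3.72 (SD, n = 2) for Ctrl and 23.5% ± 14.8 (SD, n = 2) for HLU, a difference of 16.4 percentage points (two-sided exact permutation test, p = 0.33, the smallest this design allows). Without HLU replicate 2 the difference was 5.92 points, and the intervals of HLU replicate 1 and Ctrl replicate 2 overlapped. Leaving out skeletal barcodes moved the Ctrl shares to 6.61% and 11.5%, and the difference to 14.5 points, or 3.97 without HLU replicate 2. Without the barcodes called doublets the share of Ctrl replicate 1 was 2.62% (8 of 305), and of its kept barcodes 0.116%. With each cell thinned to 5000 UMIs the means were 3.38% ± 1.88 and 12.2% ± 7.61, and the order of the groups was the same. The thinned members numbered 4, 12, 25 and 198, and all cells under 5000 UMIs were left out.

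As a share of all dividing barcodes, members made up 4.49%, 8.56%, 9.69% and 27.3%, and as a share of all kept barcodes 0.205%, 0.547%, 0.859% and 5.89%. With skeletal barcodes left out of both counts the shares of kept barcodes were 0.420%, 0.834%, 0.869% and 5.96%, so that HLU replicate 1 was level with Ctrl replicate 2. The Ctrl mean was then 0.627% in place of 0.376%. With them kept in, the differences between HLU and Ctrl means were 12.0 and 3 percentage points (two-sided exact permutation test, p = 0.33 each), and 3.16 and 0.482 points without HLU replicate 2. A further 141 barcodes with over 40000 UMIs met the rest of the rule, 132 of them in HLU replicate 2, and taking in barcodes of up to 80000 UMIs widened the difference among monocytes to 18.3 points.

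**Figure D3:**
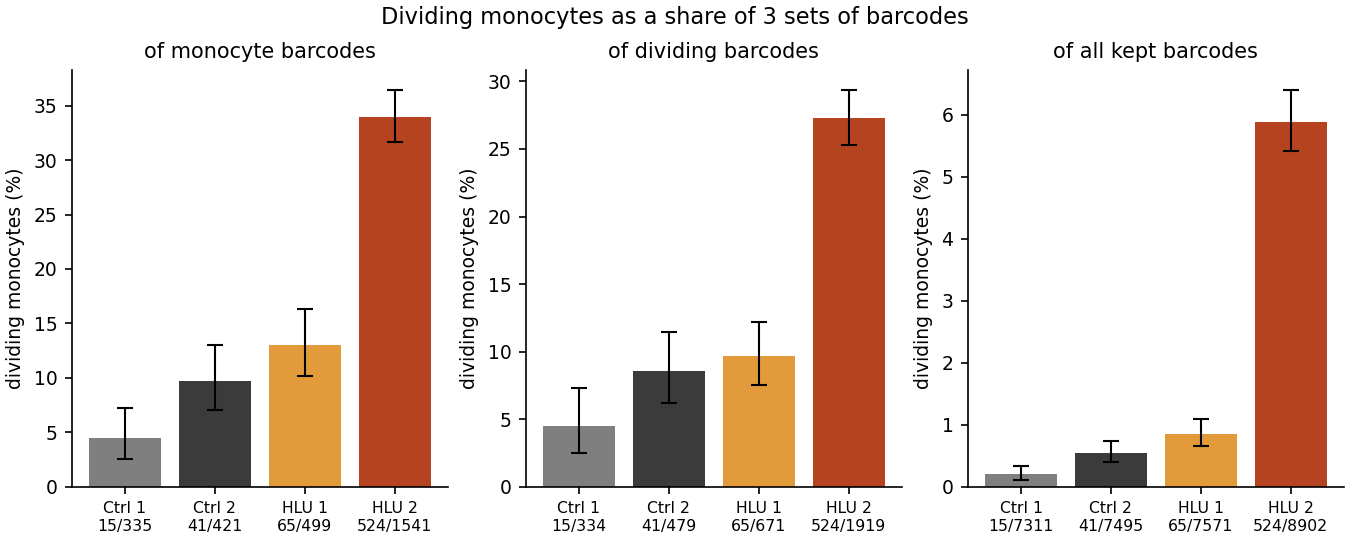
Dividing monocytes in percent (y axes) of monocyte barcodes, of dividing barcodes and of all kept barcodes in each library (x axes, with the counts), with exact 95% Clopper-Pearson intervals as error bars. HLU replicate 2 stands far above the other 3 libraries in each panel, whereas the intervals of HLU replicate 1 and Ctrl replicate 2 overlap.

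The position in the cycle was read from the G2/M and S lists. Top2a, Mki67 and Cdk1 are themselves high in G2 and mitosis, so the rule favours cells of that stage and a lean to G2/M is largely fixed by it. With the genes of the rule left out, cells with more G2/M than S phase UMIs made up 100%, 95.1%, 100% and 82.1% of members, 97.6% ± 3.45 in Ctrl and 91.0% ± 12.7 in HLU (difference of -6.53 points, two-sided exact permutation test, p = 1), and without HLU replicate 2 the difference was 2.44 points. The groups therefore overlapped. In HLU replicate 2, 94 of 524 members (17.9%) did not have more G2/M than S UMIs, against 0, 2 and 0 cells in the other 3 libraries. With cells thinned to 5000 UMIs 90.9% of the members of HLU replicate 2 (180 of 198) had more G2/M than S UMIs, and at 3000 UMIs 96.7% (116 of 120), so that the share depended on the depth at which the rule was applied. The difference between the groups was then -2.38 and -1.67 points. The median G2/M UMIs per 10000 UMIs of a cell were 112, 77.7, 107 and 52.0, and those of S phase genes 13.9, 12.0, 11.2 and 12.0. Dividing neutrophils from the same libraries had 110, 102, 136 and 117 G2/M UMIs per 10000, so that the low median of HLU replicate 2 was not seen in its dividing neutrophils, although 14.2% of them did not have more G2/M than S UMIs either, against 0.244 to 2.70% in the other libraries. Lists of unequal size set the level at which a cell counts as G2/M, and no cycle length can be read from these shares.

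**Figure D4:**
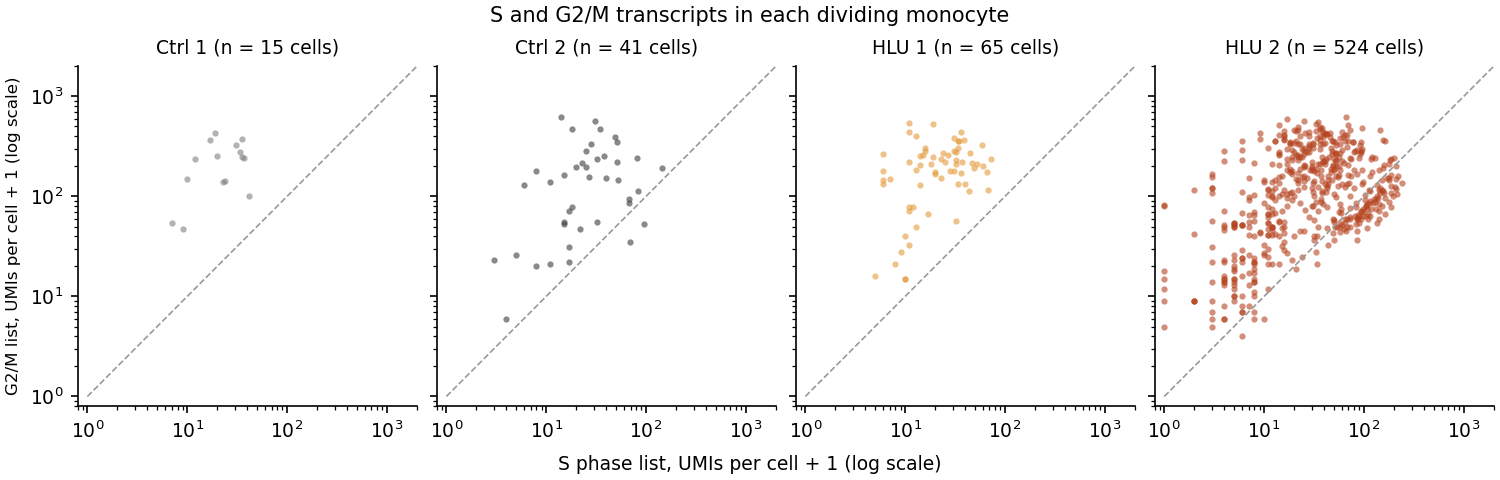
UMIs of the S phase list (x axes) and of the G2/M list without the rule genes (y axes) in each dividing monocyte, 1 added to each, on log scales, with 1 panel per library. The dashed line marks equal UMIs, and a group of cells at or below it is seen in HLU replicate 2, which holds 94 such cells.

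Gene levels in members were then compared between HLU and Ctrl on UMIs summed per library, with edgeR's quasi-likelihood test and Benjamini-Hochberg adjustment over 8030 genes. One gene passed an adjusted p of 0.05 (0.0125% of genes tested): Dcn (decorin, a proteoglycan of connective tissue made by mesenchymal cells, chr10:97479609-97518143 in mm10) was at 1546 and 968.5 CPM in Ctrl mice and at 44.1 and 48.2 in HLU mice, 28.4-fold lower (log2 fold change -4.83, SE 0.44, adjusted p = 0.0309, n = 2 each). Dcn was also lower in the dividing neutrophils of the same libraries (756, 1120, 1.49 and 38.4) and in the non-dividing monocytes (16269, 11436, 28.6 and 320, or 859, 728, 28.6 and 86.4 with skeletal barcodes left out). The 21 mesenchymal genes summed to 2003, 1390, 280 and 81.7 CPM in members, Dcn was the most abundant of them, and Lepr and Postn were at 0. Their part in the Dcn result was not tested. The call was lost without the barcodes called doublets (adjusted p = 0.666) and without skeletal barcodes (adjusted p = 0.537), at log2 fold changes of -2.67 and -4.58. No gene was called higher in HLU by edgeR, while 357 genes (4.45%) had an unadjusted p under 0.05 in either direction and DESeq2 called 24 (0.299%). The count of calls hung on single libraries: it was 34 without Ctrl replicate 1, 17 without Ctrl replicate 2, 1209 without HLU replicate 1 and 95 without HLU replicate 2, with the lone library of a group then assumed to vary like the other group.

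Genes with the smallest p higher in HLU were Csf3, Ccl4, Lrpprc, S100a8 and Chil3. Csf3, which encodes the granulocyte growth factor G-CSF, had 0 and 1 UMIs in the Ctrl members and 52 and 2726 in HLU, or 38.8 and 222 CPM (adjusted p = 0.361, edgeR). DESeq2 called 4 of these 5 genes, with an adjusted p of 0.000968 for Csf3, 0.000367 for Ccl4, 0.0206 for S100a8 and 0.0401 for Chil3, but not Lrpprc (0.657). With the replicate block, the adjusted p of Csf3 was 0.0429 by edgeR. Ccl4, a chemokine for monocytes and T cells, was at 29.5 and 65.4 against 208 and 800 (log2 fold change 3.30, SE 0.70, adjusted p = 0.573, edgeR), and without HLU replicate 2 its log2 fold change was 1.93. S100a8, a subunit of calprotectin of neutrophils and monocytes, was at 821 and 2195 against 7788 and 5492 (2.08, SE 0.49, adjusted p = 0.733, edgeR). In members the 2 HLU libraries lay above both Ctrl libraries for all 5 genes, as they did for 22.3% of genes tested, and below them for 14.4%. In non-dividing monocytes Csf3 was at 5.65, 41.4, 6.16 and 454 CPM and Ccl4 at 70.2, 468, 133 and 2215. There the groups overlapped for Csf3, Ccl4 and Lrpprc, while HLU lay above Ctrl without overlap for S100a8 and Chil3. The 14 neutrophil genes summed to 3501, 8679, 18816 and 17877 CPM in members and to at least 328818 in dividing neutrophils, a contrast that the rule fixes in part since Camp, Ngp and Ltf are in the list, with S100a8 the most abundant in members, and their part in the S100a8 and Chil3 values was not tested. Besides Dcn, the smallest p lower in HLU belonged to Hspb1, Ly6a, Sod3 and Igfbp7 (adjusted p from 0.107 to 0.116 by edgeR and from 1.71e-05 to 0.000367 by DESeq2). Hspb1, a small heat shock protein, was at 55.2, 63.1, 2.99 and 4.56 CPM in members and at 1480, 754, 38.4 and 5.93 in non-dividing monocytes. Ly6a (the stem cell antigen Sca-1) was at 66.3, 60.8, 2.99 and 5.95 in members and at 165, 63.2, 17.7 and 13.7 in non-dividing monocytes. Sod3, extracellular superoxide dismutase, was at 18.4, 50.2, 0.747 and 1.06 against 524, 378, 0 and 7.09, and Igfbp7 at 33.1, 50.2, 2.99 and 3.26 against 1046, 961, 22.2 and 16.5. With skeletal barcodes left out, the non-dividing levels were 171, 163, 38.4 and 4.39 for Hspb1, 76.5, 63.5, 17.7 and 13.6 for Ly6a, 48.3, 36.0, 0 and 1.42 for Sod3 and 78.6, 127, 22.2 and 9.96 for Igfbp7. In both classes both HLU libraries lay below both Ctrl libraries for all 4 genes, as the mesenchymal sum did in members, and its part in them was not tested.

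The mitotic genes gave no call. On the log2 scale Birc5 (chr11:117849251-117855743) differed by -0.64 (SE 0.45) and Ube2c (chr2:164769898-164778822) by -0.82 (SE 0.57), with an adjusted p of 0.892 for each from edgeR. Cdkn3 (chr14:46760541-46771669) was at 191, 103, 137 and 83.0 CPM and differed by -0.48 (SE 0.46, adjusted p = 0.899, edgeR). For these 3 genes HLU replicate 1 lay between the 2 Ctrl libraries and HLU replicate 2 below both, so the groups overlapped. These 3 genes hung on single libraries. Cdkn3 was at 0.064 without Ctrl replicate 1 and at -0.90 without Ctrl replicate 2. Birc5 was at -1.09 without HLU replicate 1 (adjusted p = 0.0168, edgeR) and at -0.12 without Ctrl replicate 1. Ube2c was at -1.73 without HLU replicate 1 (adjusted p = 1.08e-05, edgeR), -1.29 without Ctrl replicate 2, -0.25 without HLU replicate 2 and -0.09 without Ctrl replicate 1, the last 3 with an adjusted p above 0.9. Among 54 G2/M genes 0 were called, 10 had both HLU libraries below both Ctrl libraries and 0 above, beside 14.4% and 22.3% over all genes tested, and the median log2 fold change was -0.37 (-0.10 without HLU replicate 2), against 0.03 over all genes. The 54 include Top2a, Mki67 and Cdk1 of the rule, and Top2a is 1 of the 10. In the spindle and APC/C list all 17 genes had a log2 fold change below 0, 2 without overlap, at a median of -0.45 that was -0.04 without HLU replicate 2. In the G1/S and S list of 39 genes tested, 3 lay above and 4 below without overlap, both under the shares over all genes, and the median of 0.18 became -0.44 without HLU replicate 2.

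Of 18 monocyte identity genes 5 lay above and 4 below Ctrl without overlap, beside 22.3% above and 14.4% below over all genes tested, and 0 were called. The 18 include the 4 monocyte genes of the rule, and Ms4a6c and Vcan are among the 5 above. Ly6c2 (chr15:75108158-75111970) was at 887, 537, 1515 and 2929 CPM (log2 fold change 1.58, SE 0.46, adjusted p = 0.892, edgeR), so that both HLU libraries were above both Ctrl libraries. Ms4a6c was at 471, 363, 514 and 809, and Csf1r, the receptor for macrophage colony-stimulating factor, at 173, 291, 302 and 226; both genes belong to the rule. Among 12 progenitor genes 4 lay above and 1 below without overlap, at a median of 0.12 that became -0.22 without HLU replicate 2. The lone one below was Sox4, a transcription factor of progenitors, at 283, 56.1, 35.1 and 14.5 (log2 fold change -2.87, SE 0.79, adjusted p = 0.892).

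Glycolytic and hypoxia-induced genes were low in HLU replicate 2. The 18 glycolysis genes summed to 21667, 24446, 17722 and 8073 CPM in members, and Gapdh was at 7526, 7643, 5731 and 2518 (log2 fold change -0.95, SE 0.43, adjusted p = 0.892, edgeR). All 17 tested had a log2 fold change below 0, 8 of them without overlap beside 14.4% over all genes, at a median of -0.81 (-0.38 without HLU replicate 2). The 16 hypoxia targets summed to 2054, 3272, 1681 and 422, and Ero1l, an oxidoreductase of protein folding, was at 884, 1223, 541 and 128 (-1.73, SE 0.61, adjusted p = 0.892, edgeR). Here 10 of 15 tested lay below without overlap, beside the same 14.4%, at a median of -1.35 (-0.61 without HLU replicate 2), and 0 were called. The same library was the lowest for the glycolysis sum in non-dividing monocytes (17746, 20713, 21653 and 8661) and in dividing neutrophils (15948, 19050, 14584 and 4742). Ribosomal protein genes summed to 231968, 208285, 199300 and 149174 CPM in members, and 43 of 85 tested lay below without overlap, again beside 14.4% over all genes, at a median of -0.38.

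Inflammatory genes were high in the members of HLU replicate 2. The 17 genes of that list summed to 3763, 4639, 4047 and 9900 CPM in members and to 12488, 17482, 13840 and 24392 in non-dividing monocytes. With skeletal barcodes left out, the non-dividing sums were 17835, 21825, 13840 and 23918, so that HLU replicate 2 lay nearer to Ctrl replicate 2. Il1b (interleukin-1 beta) was at 328, 345, 378 and 1701 (log2 fold change 1.58, SE 0.64, adjusted p = 0.892, edgeR), and without HLU replicate 2 its log2 fold change was 0.09. Of 15 tested, 6 lay above and 2 below without overlap, beside 22.3% and 14.4% over all genes, 0 were called, and the median of 1.24 became -0.32 without HLU replicate 2. HLU replicate 1 therefore did not share the high level.

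For glutamine (Gln) use and apoptosis, which the study followed in monocytes, no gene was called in members. Of 24 genes of Gln uptake and use, 7 lay above and 2 below Ctrl without overlap, beside 22.3% above and 14.4% below over all genes tested, and the median log2 fold change was 0.29 (0.28 without HLU replicate 2). This is near the background. Slc7a11, the cystine-glutamate exchanger, was at 416, 283, 608 and 489 CPM (0.59, SE 0.37, adjusted p = 0.892, edgeR), and the Gln transporter Slc1a5 at 18.4, 42.1, 35.8 and 56.7 (0.48, SE 0.49, adjusted p = 0.899, edgeR). With 1 library left out, the log2 fold change of Slc1a5 ran from 0.0029 to 1.26. Glud1 (glutamate dehydrogenase) was at 129, 93.5, 134 and 148 and Gclc, of glutathione synthesis, at 58.9, 44.4, 79.2 and 35. HLU lay above Ctrl without overlap for Slc7a11 and Glud1 but not for Slc1a5 and Gclc.

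Of 13 anti-apoptotic genes 2 lay above and 1 below without overlap, and of 18 pro-apoptotic genes 3 lay above and 4 below, also near the 22.3% and 14.4% over all genes. Mcl1, a BCL2-family survival factor, was at 512, 659, 493 and 197 CPM (log2 fold change -0.84, SE 0.47, adjusted p = 0.892, edgeR) and Bcl2a1b, from a cluster of near-identical copies among which reads can be split, at 3.68, 45.6, 23.9 and 455. Bax, a pore-forming executioner, was at 383, 388, 353 and 496 (0.08, SE 0.36, adjusted p = 0.982). Xiap, Diablo, Bcl2 and Bak1 had log2 fold changes of 0.03, 0.03, -0.05 and 0.15, each with an SE of at least 0.41. The direction of Gclc, Xiap, Diablo, Bcl2, Bax and Bak1 turned under other settings.

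**Figure D5:**
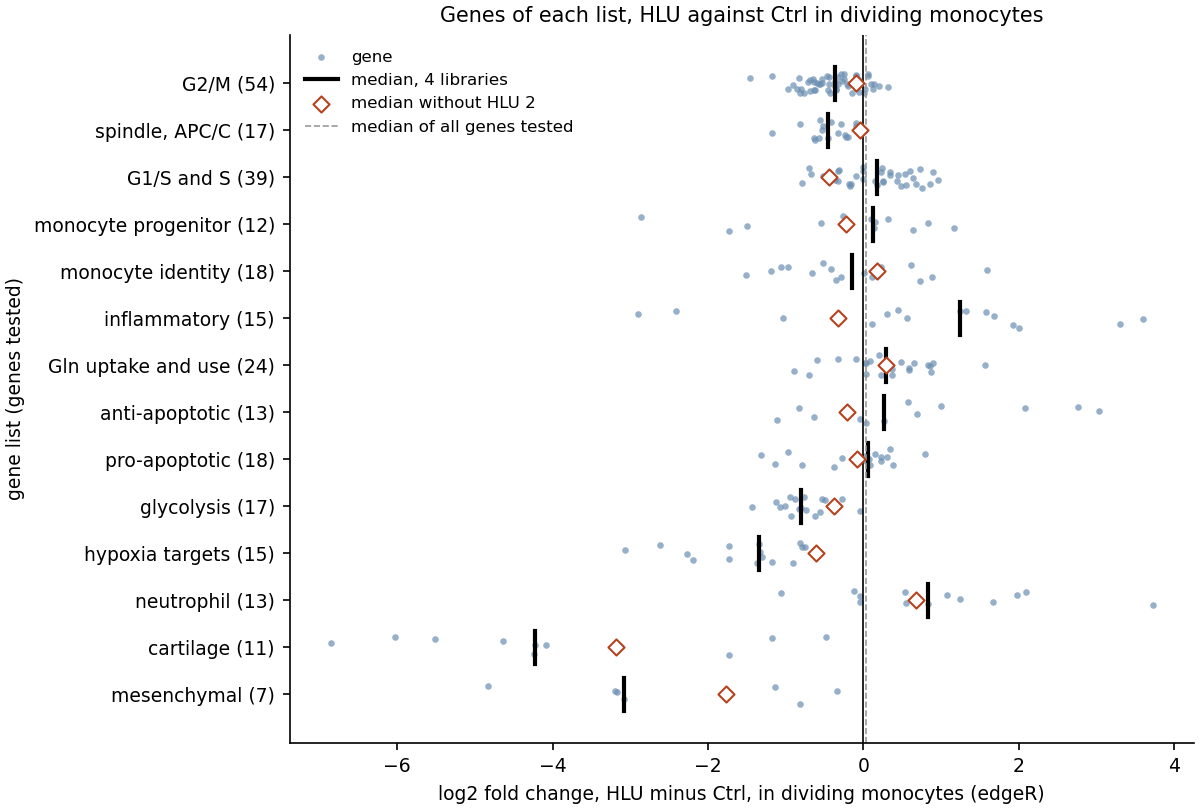
Log2 fold change, HLU minus Ctrl, of each tested gene (points) by gene list (y axis, with the number tested) in dividing monocytes, from the edgeR fit. Black bars mark list medians over 4 libraries and open diamonds the medians without HLU replicate 2, which change sign for the inflammatory and the G1/S and S lists, among others.

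Transcripts of other cell types were present in members at levels that differed between libraries. The neutrophil list, given above, had the highest sums among these lists. The 12 macrophage genes summed to 781, 1721, 2059 and 832 CPM, mostly from Hmox1, which encodes heme oxygenase. The 12 dendritic cell genes summed to 103, 766, 691 and 231 CPM, mostly from Cd74, the class II invariant chain, with Xcr1 and Clec9a at 0. Siglech, of the same list, was at 0, 36.2, 5.97 and 0.244 CPM. The 6 megakaryocyte genes summed to 7.36, 671, 9.71 and 23.9 CPM, mostly from Pf4 (platelet factor 4), so that Ctrl replicate 2 stood apart, with Treml1 at 0. The 8 B cell genes summed to 84.7, 95.8, 121 and 34.0 CPM, mostly from Ighm, with Ms4a1 at 1.49 CPM or less and Vpreb3 at 0. The 8 genes of T and natural killer cells summed to 29.5, 23.4, 35.8 and 52.7 CPM, mostly from Nkg7, with Klrb1c at 0. The part of these transcripts in the results was not tested. At least 3 UMIs of C1qa, C1qb and C1qc, complement genes of resident macrophages, were found in 0%, 4.88%, 0% and 0.763% of members. At least 3 UMIs of Ctsk and Acp5, enzymes of osteoclasts, were found in 6.67%, 4.88%, 1.54% and 6.49% of members. Non-dividing monocytes, which were shallower cells, met that level in 14.98%, 12.7%, 3.18% and 12.3%. The 13 osteoclast lineage genes summed to 125, 777, 631 and 225 CPM in members, with Mmp9 the most abundant and Calcr and Oscar at 0. At least 10 UMIs of Cd74, H2-Aa and H2-Ab1 were seen in 0%, 26.8%, 18.5% and 5.15% of members, with no order by group.

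Finally, the HLU effect was compared between members and non-dividing monocytes with the interaction term of an edgeR fit over 8 sums, with the library as a covariate. The effect differed for 108 of 11409 genes (0.947%, adjusted p under 0.05). Among them Aqp1, a water channel, had 0 UMIs in the Ctrl members but was at 53.5 and 67.2 CPM in Ctrl non-dividing monocytes, and was under 1 in both classes in HLU. Skeletal barcodes made up 35.9% and 23.1% of the non-dividing monocytes in Ctrl and 0% and 0.979% in HLU. With those barcodes left out, 5 of 10238 genes (0.0488%) were called, 4 of which had been among the 108. One of the 5 was Rgcc, a regulator of cell cycle progression, which was at 77.3 and 77.7 CPM in Ctrl members and 61.2 and 163 in HLU members, against 109, 140, 29.3 and 51.5 in non-dividing monocytes (log2 difference of effects 2.07, SE 0.28, adjusted p = 0.0252, edgeR). Both HLU libraries lay below both Ctrl libraries in the non-dividing class, and the groups overlapped in members.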

How the data were processed

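Tibiae and femurs of 2 Ctrl and 2 HLU mice each gave 1 library (10x 3′ kit V3.1, NovaSeq). The deposited values were raw UMI counts per gene and barcode, which the authors made with Cell Ranger 6.0.0 on mm10 (31053 genes), and the submitters' processing notes also name Seurat 4.1.0. All 40003 deposited barcodes were filtered as in the rule. The members, gene lists and tests were chosen with earlier results of these data known.

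Counts of members were summed per library and tested with edgeR 4.0.16 (quasi-likelihood, TMM, filterByExpr, Benjamini-Hochberg) in R 4.3.3. DESeq2 1.42.0, other filters and thresholds, thinning, doublets left out and libraries left out were alternatives. Leaving out skeletal barcodes, except for the share of all kept barcodes, and raising the limit on UMIs were chosen after seeing the data. The classes were compared with 0.5 UMIs added and at 50 CPM, without a test. Doublets were called within each library by Scrublet in scanpy 1.11.5 and kept in the main results. Shares were tested by exact permutation over libraries (scipy 1.17.1), and intervals cover counting error only. Member sums ranged from 271606 to 12272700 UMIs, so Ctrl replicate 1 limits the precision. Nothing says that the mice of one group were raised apart, and p-values measure the spread between these mice only.

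Named were the genes of the rule, the called genes and the 5 smallest p in each direction, 5 in each direction for the interaction, the 15 highest and 10 lowest class ratios, genes the study followed, and leading members of the lists. Sox4, Mcm5, Rrm2 and the neutrophil contrasts were picked after their values were seen. On data simulated from these sums, edgeR recovered 107 of 200 genes changed by 2 on the log2 scale, with 16 false calls among 8030. Gene positions are those of GENCODE M21. Some genes of the lists are not reported here.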

Additional observations from a re-analysis of the deposited data

Results flagged for a closer look

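In HLU replicate 2, 132 barcodes over 40000 UMIs met the rest of the rule, against 3 in each of the other 3 libraries, and they lie outside the comparisons above.

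The HLU effect differed between dividing and non-dividing monocytes for 108 genes by the edgeR interaction test. The log2 differences of the effect, dividing minus non-dividing, were 10.88 for Aqp1, 10.45 for Dpysl3, 10.2 for Uaca, 9.39 for Il1rl1 and 7.06 for Thbs4. For Aqp1, Dpysl3, Uaca and Il1rl1 the Ctrl members held 0 UMIs, so the fitted values depend on the prior count and are not bounds. In the other direction they were -7.44 for Ptcra, -4.84 for Ppbp, -4.4 for Ly6d, -4.1 for Siglech and -3.67 for Ramp3. Ptcra was at 225 CPM in members of Ctrl replicate 2 and under 1 in those of the other 3 libraries. Ppbp, Ly6d and Siglech were likewise at 97.0, 87.6 and 36.2 CPM in members of Ctrl replicate 2, and at 0 in those of Ctrl replicate 1. With skeletal barcodes left out the differences were 6.09 for Ptx3, 4.42 for Acp5, 2.07 for Rgcc and -4.18 for Ly6d. Acp5, an acid phosphatase of osteoclasts, was then at 3.68, 11.3, 93.4 and 31.4 CPM in members and at 60.0, 576, 116 and 97.3 in non-dividing monocytes.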

How the results depend on the processing

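Of the alternatives for the shares and counts of calls, 1 changed sign, the difference in the share with more G2/M than S UMIs without HLU replicate 2. The share of dividing cells among monocyte barcodes differed by 3.97 points without HLU replicate 2 and skeletal barcodes, and the difference in the share with more G2/M than S UMIs ranged from -15.5 to 2.44 points with 1 library left out. Genes called between HLU and Ctrl numbered 24 by DESeq2, 189 without a filter, 5 with the replicate block and 17 to 1209 with 1 library left out. By edgeR they numbered 0 without doublets and 0 without skeletal barcodes. Leaving out genes of other cells also gave 0, but Dcn, the only main call, is a mesenchymal gene and was left out with them. Deviations from the group mean of log2 CPM correlated at r = 0.0747 between same-numbered libraries over 2762 genes, so pairing by replicate number was not seen. Interaction calls numbered 496 without a filter, 57 at 10 counts, 60 at 5 dividing UMIs, 5 without skeletal barcodes and 79 to 338 with 1 library left out. Directions turned for Gclc (-0.0072 at 5 dividing UMIs, -0.048 with the block), Xiap (-0.0028 by DESeq2, -0.0043 with RLE factors, -0.12 at 5 dividing UMIs), Diablo (-0.017 by DESeq2, -0.051 at 5 dividing UMIs) and Bcl2 (0.10 by DESeq2, 0.075 without a filter, 0.15 at 5 dividing UMIs, 0.020 with the block, 0.17 without skeletal barcodes). Ppbp turned to 0.18 without skeletal barcodes. With 1 library left out, log2 values ran from -0.90 to 0.064 for Cdkn3, -0.57 to 0.59 for Gclc, -0.18 to 0.39 for Xiap, -0.48 to 0.55 for Diablo, -0.63 to 8.72 for Bcl2, -0.21 to 0.29 for Bax, -0.10 to 0.38 for Bak1, -8.77 to 4.05 for Ptcra, -5.44 to 1.35 for Ly6d and -5.04 to 2.30 for Siglech. The cause was not tested. Depth limits Ctrl replicate 1 most, with 15 members.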
